A study of Mus musculus with 24 samples.

Results

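The genes described here carry bradykinin signalling and prostaglandin synthesis: Bdkrb1, Bdkrb2, Pla2g4a, Ptgs1, Ptgs2, Ptges, Ptgis and Ptger4. They were taken by name from a table of unique molecular identifier (UMI) counts, and all 8 are among its 13479 genes and among the 11337 that passed the filter on low counts. The counts came from bulk MARS-seq, which tags and counts transcripts from their 3′ ends, in passage 5 primary fibroblasts from the skin of mice. These mice were labelled NIK X mut (MUT), NIK knockout (KO) or wild-type littermates (WT). The labels do not say what the X mutation changes, or which promoter or allele design the knockout uses. NIK, encoded by Map3k14, is the kinase that TWEAK, a TNF-family cytokine, engages through its receptor Fn14 to start noncanonical NF-kB signalling. Cells were untreated or had received TWEAK at 100 ng/ml for 6 or 24 h. Each genotype was thus sampled at 3 times, with 2 MUT, 2 KO and 4 WT libraries per time, 24 in all. Library names give 3 h where the other labels give 6 h, and 6 h is used here. No untreated library is labelled with 6 or 24 h, so time in culture and TWEAK cannot be told apart. Whether replicates came from separate mice is not stated, so p-values measure the spread between these libraries, which may be technical.

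Library totals ran from 889863 UMIs in WT replicate 1 at 6 h to 4342981 in untreated MUT replicate 1. Map3k14 had 1, 1 and 2 UMIs in the KO pairs before TWEAK and at 6 and 24 h, against 207, 285 and 494 UMIs over the WT libraries at those times. All 10 dermal fibroblast markers were present, with a summed level of 15800 to 28500 CPM (library-scaled UMI counts, TMM-normalised). Markers of other cells summed to 42.7 CPM or less in each library for endothelial, macrophage, keratinocyte, adipocyte and melanocyte or Schwann cells, and none of the 5 mast cell markers was in the table. The muscle and pericyte list had 5 of 6 markers in the table and summed to 94.9 to 440 CPM. The libraries fell into 2 sets that follow no label and were taken from an earlier account of these data. Tests between the sets, and fits with the sets as groups, use a split drawn from the same libraries, so their p-values are descriptive only. MUT and WT replicates 3 and 4 scored 6.98 to 40.7 on the first principal component, and KO and WT replicates 1 and 2 scored -39.7 to -6.48. Genotype is therefore tied to set, and within-set values are given beside the genotype differences that passed and beside others where they are named. The cultures also differed in sex. KO libraries held 88 Xist and 7 Y-linked UMIs in all and WT replicate 1 held 42 and 0, while MUT held 0 and 354 and WT replicates 2, 3 and 4 held 127 to 228 Y-linked UMIs each.

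Bradykinin is cut from kininogen by kallikreins and acts through G-protein-coupled receptors. B2, encoded by Bdkrb2, is the receptor that most resting tissues carry, while B1, encoded by Bdkrb1, binds kinins that have lost their last arginine and is known as a receptor made during inflammation. Receptor activation releases arachidonic acid through cytosolic phospholipase A2 (Pla2g4a). The cyclooxygenases Ptgs1 and Ptgs2 turn it into prostaglandin H2, which the microsomal synthase Ptges converts to prostaglandin E2 and Ptgis to prostacyclin. Ptger4 encodes EP4, a receptor through which prostaglandin E2 raises cyclic AMP, and fibroblasts are a known source of prostaglandin E2 in inflamed skin.

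After 6 h of TWEAK the WT cells raised both bradykinin receptors, Ptgs2 and Ptges, 4 of the 8 genes, where 4.35% of all tested genes rose. When the sets were tested apart, Ptgs2 and Bdkrb2 passed in replicates 3 and 4 only. The difference between the sets passed for Ptgs2 and not for Bdkrb2, which was higher at 6 h than untreated in each WT replicate. At 24 h Bdkrb1 and Ptges remained above untreated WT, 2 of 8 with 3.68% of all genes rising, and Ptgs2 had 13.3 to 17.5 CPM against 11.4 to 19.9 CPM untreated. MUT cells raised Bdkrb1, Bdkrb2 and Ptges at 6 h, 3 of 8 with 1.5% of all genes rising. None of the 8 passed in KO cells at either time, at an unadjusted p under 0.05 or with DESeq2 either, and 0.0794% of all genes passed in KO at 6 h. At 24 h no gene passed in KO (0%), with 382 at an unadjusted p under 0.05 and 3 by DESeq2. Calls are edgeR quasi-likelihood tests at a Benjamini-Hochberg adjusted p under 0.05 over all 11337 genes. The median log2 change of the 8 genes at 6 h was 1.15 in MUT, 0.11 in KO and 1.01 in WT, beside -0.03, -0.0025 and -0.01 over all genes. The 8 genes were chosen with earlier results of these data known, so setting them beside all genes is no test.

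**Figure D1:**
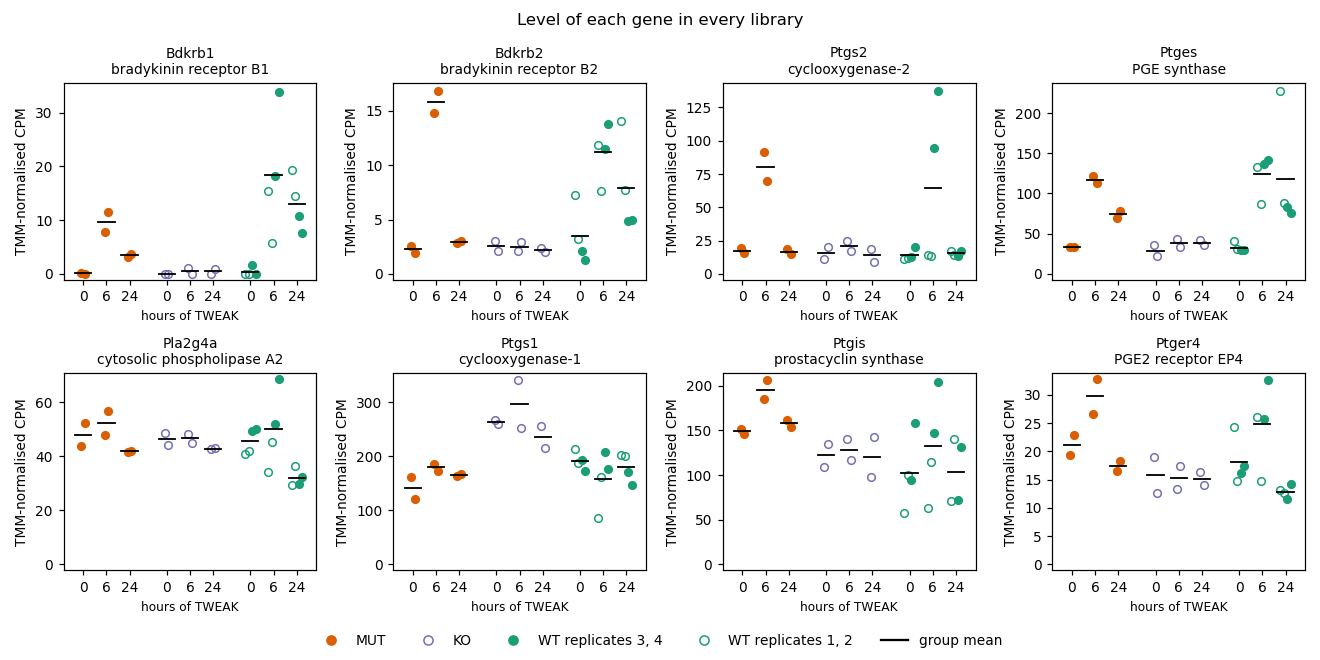
Level of each of the 8 genes (TMM-normalised CPM, y axis) in every library against hours of TWEAK (x axis) for MUT, KO and WT, with black lines at the group means. Filled circles are MUT and WT replicates 3 and 4, open circles are KO and WT replicates 1 and 2, and Ptgs2 at 6 h is high in the filled circles, at 70.0 to 137 CPM, and not in the open ones, at 13.4 to 24.7 CPM.

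Bdkrb1 was close to absent before TWEAK and was detected in every MUT and WT library after it, while KO libraries held 0 to 2 UMIs throughout. MUT libraries held 1 and 0 UMIs untreated, 11 and 29 at 6 h and 9 and 11 at 24 h. KO libraries held 0 and 0, then 1 and 0, then 0 and 2 UMIs at the same times. WT replicates 1 to 4 held 0, 0, 4 and 0 UMIs untreated, 13, 12, 27 and 59 at 6 h and 59, 47, 37 and 14 at 24 h. Every treated MUT and WT library thus lay above every untreated library of its genotype, while the KO libraries overlapped across times. Per UMI sequenced, Bdkrb1 at 6 h was 71.3 times its untreated level in MUT (exact 95% interval 12.1 to 2886, from 40 against 1 UMI) and 42.4 times in WT (16.1 to 158, from 111 against 4). At 24 h the ratios were 25.2 in MUT (4.03 to 1045) and 33.5 in WT (12.8 to 125). These intervals cover counting error only. The 0 UMIs of the untreated KO pair allow up to 0.816 CPM before TMM scaling.

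By edgeR the Bdkrb1 rise passed at 6 h in MUT (adjusted p = 0.0121) and in WT (log2 change 5.28 ± 0.75 SE, adjusted p = 0.000103), and at 24 h in WT (4.81 ± 0.75, adjusted p = 0.000248) but not in MUT (4.21 ± 1.31, adjusted p = 0.207). The MUT call at 6 h was lost without either untreated MUT library or without MUT replicate 2 at 6 h, at adjusted p = 0.136, 0.166 and 0.139. The WT calls held without each of the 8 libraries in turn and in WT replicates 1 and 2 apart (adjusted p = 0.00134 at 6 h and 2.96e-05 at 24 h), where 2.38% and 4.32% of all genes rose, and in replicates 3 and 4 apart (0.000134 and 0.0199), where 5.86% and 2.56% rose. The last of these was lost without untreated replicate 4 or 24 h replicate 3.

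Bdkrb2 lies 7847 bases upstream of Bdkrb1 on chromosome 12 of GRCm38, at 105563226 to 105595237 on the plus strand, with no annotated gene between them. Bdkrb1 occupies 105603085 to 105605428 on the same strand. The 250 bases before the RefSeq start of Bdkrb2 (GRCm38.p6, plus strand, chr12:105562922-105563171) are shown because both neighbouring receptor genes rose after TWEAK. They hold none of the motifs searched here, so no base is in capitals.
Bdkrb2: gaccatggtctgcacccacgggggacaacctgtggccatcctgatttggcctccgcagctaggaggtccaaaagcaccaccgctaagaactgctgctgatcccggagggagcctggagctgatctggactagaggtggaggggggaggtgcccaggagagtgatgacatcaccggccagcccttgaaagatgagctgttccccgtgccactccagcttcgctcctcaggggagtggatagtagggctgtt

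Bdkrb2 rose at 6 h in MUT and WT, from a level that was measurable in every untreated library. MUT replicates 1 and 2 had 2.57 and 1.96 CPM untreated, 14.7 and 16.8 CPM at 6 h and 2.82 and 3.05 CPM at 24 h. KO replicates 1 and 2 had 3.02 and 2.10, then 2.06 and 2.89, then 2.41 and 2.0 CPM. WT replicates 1 to 4 had 7.23, 3.22, 2.12 and 1.29 CPM untreated, 11.9, 7.64, 11.5 and 13.8 CPM at 6 h and 14.1, 7.68, 4.91 and 4.93 CPM at 24 h. In both MUT and WT the 6 h libraries lay above all untreated ones, and at 24 h MUT was at 2.82 and 3.05 CPM, just above its untreated pair. The log2 change at 6 h was 2.76 ± 0.55 in MUT (edgeR adjusted p = 0.00964), -0.02 ± 0.78 in KO (adjusted p = 1) and 1.59 ± 0.41 in WT (adjusted p = 0.0195). At 24 h against 6 h Bdkrb2 fell in MUT by 2.41 on the log2 scale (adjusted p = 0.0453), the 1 gene of the 8 to fall there, where 0.37% of all genes fell.

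The MUT call for Bdkrb2 at 6 h was lost without either untreated MUT library or MUT replicate 2 at 6 h (adjusted p = 0.118, 0.159 and 0.105), and the later fall without each of the 4 MUT libraries (0.162 to 0.331). The WT call at 6 h was lost without untreated replicate 2, 3 or 4 or 6 h replicate 3 or 4, at log2 changes of 1.39 to 1.57 and adjusted p = 0.0510 to 0.0801. With the sets apart, Bdkrb2 at 6 h changed by 2.80 ± 0.51 in WT replicates 3 and 4 (adjusted p = 0.000696), while the estimate in replicates 1 and 2 was 0.83 ± 0.43 (adjusted p = 0.345). The difference between these responses, 1.97 ± 0.68, had an unadjusted p of 0.00868 and did not pass (adjusted p = 0.165). At 24 h in WT the change was 1.13 ± 0.39 (adjusted p = 0.0948), and without untreated WT replicate 1, the highest of the 4, it was 1.74 (adjusted p = 0.0106). With the replicate number as a block, which pairs same-numbered libraries in every genotype, it was 1.14 ± 0.33 (adjusted p = 0.0216). In that fit 8.02% of all genes rose and 7.59% fell.

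Ptgs2, the inducible cyclooxygenase, lies at 150100031 to 150108227 on the plus strand of chromosome 1. Its 250 bases before the RefSeq start (GRCm38.p6, plus strand, chr1:150099781-150100030) are shown because its response at 6 h differed between the WT libraries. Capitals mark a GC box, 170 to 165 bases before the start.
Ptgs2: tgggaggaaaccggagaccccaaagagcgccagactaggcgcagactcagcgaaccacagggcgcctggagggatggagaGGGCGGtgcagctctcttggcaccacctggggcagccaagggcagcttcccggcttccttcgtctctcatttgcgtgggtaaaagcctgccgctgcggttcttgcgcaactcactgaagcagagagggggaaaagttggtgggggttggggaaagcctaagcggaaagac

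Ptgs2 rose at 6 h in the MUT pair and in 2 of the 4 WT libraries. MUT replicates 1 and 2 had 19.2 and 15.7 CPM untreated, 91.3 and 70.0 CPM at 6 h and 18.7 and 14.6 CPM at 24 h. KO replicates 1 and 2 had 11.2 and 20.3, then 24.7 and 16.9, then 18.7 and 9.0 CPM. WT replicates 1 to 4 had 11.4, 11.9, 12.7 and 19.9 CPM untreated, 14.2, 13.4, 94.8 and 137 CPM at 6 h and 17.4, 14.4, 13.3 and 17.5 CPM at 24 h. WT replicates 3 and 4 stood far above replicates 1 and 2 at 6 h, and replicates 1 and 2 overlapped the untreated libraries. Over all 4 replicates the WT log2 change at 6 h was 2.28 ± 0.50 (edgeR adjusted p = 0.00653), which without replicate 4 at 6 h was 1.60 (adjusted p = 0.0589).

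Tested apart with the library sets as groups, Ptgs2 at 6 h changed by 2.87 ± 0.30 in WT replicates 3 and 4 (adjusted p = 9.15e-07), while the estimate in replicates 1 and 2 was 0.23 ± 0.38 (adjusted p = 0.838). The difference between these responses was 2.64 ± 0.48 (adjusted p = 0.0089), in a comparison where 0.838% of all genes passed. Of the 8 genes Ptgs2 alone passed in this comparison, whose p-values are descriptive because the sets were drawn from these same data. It passed in 7 of the 8 fits that each leave out 1 of these WT libraries, and was lost without untreated replicate 3 (adjusted p = 0.0913). In MUT the change at 6 h was 2.19 ± 0.66, which missed the threshold in the fit by genotype and time (adjusted p = 0.0939). It passed with DESeq2 (adjusted p = 0.0395) and with the sets as groups (2.18 ± 0.28, adjusted p = 1.54e-05), where 4.38% of all genes rose. The MUT estimate hardly moved between the fits by group and by sets. Its SE fell once the WT libraries were split by set, so the latter p-value is descriptive too. KO gave 0.40 ± 0.79 at 6 h (adjusted p = 1).

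The muscle and pericyte marker list moved with Ptgs2 at 6 h. Its sum was 334 and 309 CPM in the MUT pair and 432 and 440 CPM in WT replicates 3 and 4, against 145 and 161 CPM in the KO pair and 157 and 129 CPM in WT replicates 1 and 2. Most of it was Cspg4, at 249 and 226 CPM in MUT, 101 and 107 CPM in KO and 113, 88.8, 326 and 318 CPM in WT replicates 1 to 4. Rgs5, a pericyte marker, had 0 to 2 UMIs in each of those 8 libraries, and Myod1, the skeletal muscle factor, 0 to 14 UMIs. Des at 6 h was 10.5 and 14.4 CPM in MUT and 4.12 and 9.64 CPM in KO. WT replicates 1 to 4 had 4.74, 10.0, 21.0 and 34.4 CPM of Des. Untreated, Des was 7.01 and 10.1 CPM in MUT and 12.9 and 4.20 CPM in KO. It was 6.47, 9.65, 10.2 and 29.6 CPM in untreated WT replicates 1 to 4. Cspg4 in MUT and WT replicates 3 and 4 was 79.5 to 86.6 CPM untreated and 55.05 to 59.7 CPM at 24 h. In KO and WT replicates 1 and 2 it was 70.0 to 169, then 79.0 to 135 CPM. Mcam, also listed, was 62.5 to 81.0 CPM untreated and 66.0 to 82.6 CPM at 6 h in MUT and WT replicates 3 and 4. In KO and WT replicates 1 and 2 Mcam was 30.8 to 43.4, then 28.2 to 42.9 CPM. The part of muscle cells or pericytes in the Ptgs2 result was not tested. In bulk RNA fewer cells of a type and less RNA per cell cannot be told apart.

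**Figure D2:**
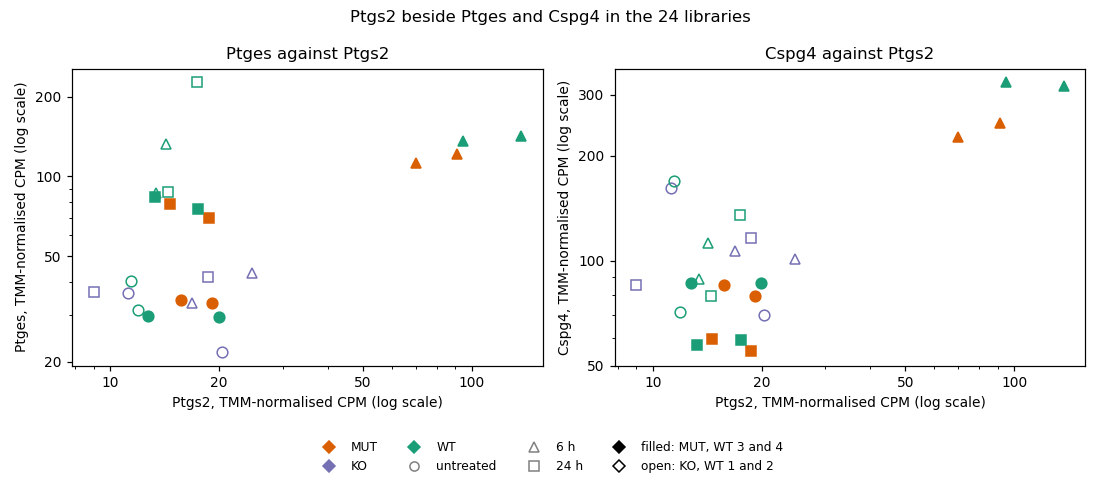
Ptges (left) and Cspg4 (right) against Ptgs2 in the 24 libraries, all in TMM-normalised CPM on log axes. Filled symbols are MUT and WT replicates 3 and 4, open symbols KO and WT replicates 1 and 2; the 4 filled triangles (6 h) stand apart at 70.0 to 137 CPM of Ptgs2, while Ptges is also raised in the open WT triangles.

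Ptges, which makes prostaglandin E2 from the product of the cyclooxygenases, lies on the minus strand of chromosome 2 at 30889471 to 30929863. The 250 bases before its RefSeq start (GRCm38.p6, minus strand, chr2:30903298-30903547) are shown because it rose in every WT culture at both times. This window lies inside the annotated span of the gene, which reaches further upstream. Capitals mark 2 GC boxes, 53 to 48 and 42 to 37 bases before the start.
Ptges: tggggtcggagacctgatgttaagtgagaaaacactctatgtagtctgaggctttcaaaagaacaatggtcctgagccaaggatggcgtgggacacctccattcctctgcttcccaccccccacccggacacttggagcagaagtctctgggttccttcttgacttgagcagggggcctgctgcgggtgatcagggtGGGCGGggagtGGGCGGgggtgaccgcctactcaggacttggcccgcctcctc

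Ptges was higher after TWEAK in all 4 WT replicates, and it stayed high at 24 h. MUT replicates 1 and 2 had 33.2 and 34.0 CPM untreated, 122 and 113 CPM at 6 h and 69.9 and 78.7 CPM at 24 h. KO replicates 1 and 2 had 36.2 and 21.7, then 43.3 and 33.3, then 41.6 and 36.5 CPM. WT replicates 1 to 4 had 40.3, 31.2, 29.7 and 29.6 CPM untreated, 133, 86.4, 136 and 142 CPM at 6 h and 227, 87.6, 83.4 and 75.5 CPM at 24 h. Treated and untreated libraries did not overlap in MUT or WT, and WT replicate 1 at 24 h stood far above the other 3.

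The log2 change of Ptges at 6 h was 1.80 ± 0.39 in MUT (edgeR adjusted p = 0.0163), 0.35 in KO (95% interval -0.56 to 1.25) and 1.91 ± 0.28 in WT (adjusted p = 0.000143). At 24 h it was 1.14 ± 0.38 in MUT (adjusted p = 0.261), 0.40 in KO (-0.48 to 1.28) and 1.85 ± 0.28 in WT (adjusted p = 0.000149), and in WT without replicate 1 at 24 h it was 1.33 (adjusted p = 5.3e-05). The MUT call at 6 h was lost without each of the 4 MUT libraries, at adjusted p = 0.0911 to 0.171. In WT replicates 1 and 2 apart, where Ptgs2 did not pass, Ptges changed by 1.58 ± 0.32 at 6 h (adjusted p = 0.00472), and this call was lost without untreated replicate 2 or 6 h replicate 1. In WT replicates 3 and 4 it changed by 2.23 ± 0.33 (adjusted p = 7.43e-05).

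Pla2g4a, Ptgs1, Ptgis and Ptger4 passed in no comparison of TWEAK with untreated cells. Pla2g4a, which frees the arachidonic acid, ranged over 41.6 to 56.8 CPM in MUT, 42.8 to 48.7 CPM in KO and 29.5 to 68.8 CPM in WT. In WT it had 29.5 to 36.6 CPM at 24 h, below the untreated 40.7 to 50.2 CPM without overlap. The log2 change was -0.50 ± 0.16 (adjusted p = 0.0634), and it passed with the replicate number as a block (-0.49, adjusted p = 0.0192). Ptger4, the EP4 receptor, had 16.6 and 18.3 CPM in MUT at 24 h, 14.0 and 16.3 CPM in KO and 11.5 to 14.2 CPM in WT, against 26.7 and 32.8, 13.4 and 17.4, and 14.8 to 32.7 CPM at 6 h. Ptgs1, the constitutive cyclooxygenase, ranged over 120 to 186 CPM in MUT, 216 to 341 CPM in KO and 86.6 to 214 CPM in WT. Ptgis, prostacyclin synthase, ranged over 147 to 207 CPM in MUT, 97.7 to 143 CPM in KO and 57.9 to 205 CPM in WT, and the 3 times overlapped in KO and in WT.

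Between 6 and 24 h over the 4 WT replicates, Ptgs2 (-2.09 ± 0.49), Ptger4 (-0.94 ± 0.22) and Pla2g4a (-0.67 ± 0.16) fell, 3 of the 8 genes where 2.23% of all genes fell, with edgeR adjusted p = 0.0192, 0.0221 and 0.0251. All 3 calls were lost without 6 h replicate 3 (adjusted p = 0.0664 to 0.0712), without 6 h replicate 4 (0.106 to 0.124, with Ptgs2 at -1.42) and without 24 h replicate 3 (0.0627 to 0.0787). Pla2g4a was also lost without 24 h replicate 1 or 4 (0.0529 and 0.0563). With the sets apart, all 3 passed in WT replicates 3 and 4, where 5.55% of all genes fell, and none in replicates 1 and 2, where 0.935% did. Ptgs2 changed by -2.95 ± 0.29 in replicates 3 and 4 (adjusted p = 8.34e-07), and in replicates 1 and 2 it had slightly more at 24 h, 17.4 and 14.4 CPM, than at 6 h, 14.2 and 13.4 CPM (0.22 ± 0.36, adjusted p = 0.842). That difference between the sets passed for Ptgs2 (-3.16 ± 0.46, adjusted p = 0.000865) and not for Ptger4 (adjusted p = 0.529) or Pla2g4a (adjusted p = 0.284). These p-values are descriptive too, because the sets were drawn from these same data. Within replicates 3 and 4 the Ptger4 call was lost without 6 h replicate 4 or 24 h replicate 3, and the Pla2g4a call without 6 h replicate 4. In KO no member passed between these times and no gene did (0%), with 510 genes at an unadjusted p under 0.05 and 0 by DESeq2.

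**Figure D3:**
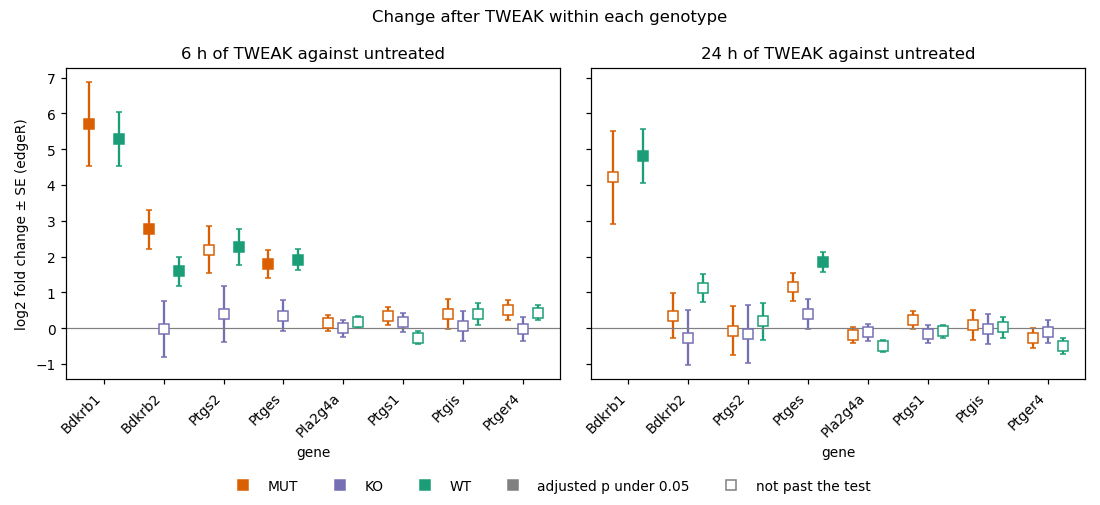
Log2 fold change against untreated cells of the same genotype (y axis, points, with bars of 1 SE from edgeR) for each gene at 6 h (left) and 24 h (right). Filled squares passed at an adjusted p under 0.05; Bdkrb1 in KO is left out because its groups held 0 to 2 UMIs. At 6 h the MUT and WT squares for Bdkrb1, Bdkrb2, Ptgs2 and Ptges lie at 1.59 or more while the KO squares for Bdkrb2, Ptgs2 and Ptges lie at 0.40 or less.

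Set against WT at the same time, KO cells had less Bdkrb1 and less Ptges after TWEAK. This comparison of levels was added after seeing the data. The difference in response between KO and WT, given below, passed for none of the 8 genes. At 6 h KO held 1 Bdkrb1 UMI against 111 in WT, a ratio per UMI sequenced of 0.0192 (exact 95% interval 0.000483 to 0.109). At 24 h KO held 2 against 157 in WT, a ratio of 0.0399 (0.00479 to 0.146). The log2 difference of Ptges, KO over WT, was -1.72 ± 0.38 at 6 h (adjusted p = 0.0195) and -1.61 ± 0.36 at 24 h (adjusted p = 0.0162), and Bdkrb1 passed with adjusted p = 0.0162 and 0.0195. These are 2 of 8 genes lower at each time, where 0.838% of all genes at 6 h and 1.54% at 24 h were lower in KO.

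Within the library set that KO shares with WT replicates 1 and 2, KO was again lower in Bdkrb1 (adjusted p = 0.0381 at 6 h and 0.000874 at 24 h) and Ptges (-1.51 ± 0.34, adjusted p = 0.0233, and -2.01 ± 0.31, adjusted p = 0.000361). Bdkrb2 was lower there at 24 h (-2.28 ± 0.48, adjusted p = 0.00562), where over all 4 WT replicates it missed the threshold (-1.85 ± 0.59, adjusted p = 0.0946). In that fit 1.54% of all genes differed at 6 h, with 0.997% lower in KO, and 2.55% were lower in KO at 24 h. The 24 h calls for Bdkrb1 and Ptges held without each of the 4 libraries. At 6 h both were lost without either KO library or WT replicate 1, and Bdkrb2 at 24 h without KO replicate 2 or WT replicate 1. For Ptgs2 at 6 h the estimate was -1.72 ± 0.65 over all WT replicates (adjusted p = 0.205) and 0.54 ± 0.39 against WT replicates 1 and 2 (adjusted p = 0.565), so neither passed and the sign differed. For Ptgs2 genotype and library set cannot be told apart. WT replicate 1 was the WT culture with Xist UMIs as in KO. Beside it, the KO pair held 1 and 0 Bdkrb1 UMIs against 13 at 6 h. At 24 h the pair held 0 and 2 against 59. Ptges in the KO pair was at 43.3 and 33.3 CPM against 133 CPM, then 41.6 and 36.5 CPM against 227 CPM. That 227 CPM stood far above the other WT replicates at 24 h. With a lone WT culture of this kind, sex and genotype cannot be told apart.

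Each of the KO differences in Bdkrb1 and Ptges was lost without either KO library of its time, which leaves a lone library assumed to vary like the other groups, at adjusted p = 0.114 and 0.259 for Bdkrb1 and 0.192 and 0.238 for Ptges at 6 h, and 0.214 and 0.160 for Bdkrb1 and 0.144 and 0.285 for Ptges at 24 h. Ptges at 6 h was also lost without WT replicate 3 at 6 h (0.0530). Without WT replicate 2 at 6 h, Bdkrb2 (-2.24, adjusted p = 0.0414), Ptgs2 (-2.08, 0.0304) and Ptgs1 (0.90, 0.0391) passed as well. The Ptgs1 difference, KO over WT, at 6 h was 0.89 ± 0.22 (adjusted p = 0.0502), and the KO and WT libraries did not overlap. Against WT replicates 1 and 2 it passed (1.2 ± 0.22, adjusted p = 0.00426), but not without KO replicate 1 or WT replicate 1 at 6 h. The lowest WT value, 86.6 CPM, was replicate 1 at 6 h, the shallowest library. The Ptgs1 difference passed without that library (0.70, adjusted p = 0.0482), without WT replicate 3 at 6 h (1.04, adjusted p = 0.0319) and with DESeq2 (0.87, adjusted p = 0.0112). KO and WT also did not overlap in Ptgs1 before TWEAK (261 to 267 against 173 to 214 CPM). Nor did they at 24 h (216 to 257 against 147 to 202 CPM), and neither of these differences passed.

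The difference between the responses of KO and WT, each against its own untreated cells, passed for none of the 8 genes at 6 or 24 h, where 0.097% and 0.265% of all genes passed. DESeq2 called none either, and 1 of the 8, Ptges, had an unadjusted p under 0.05 at each time. Its difference in response, KO minus WT, was -1.57 ± 0.52 at 6 h (adjusted p = 0.756) and -1.46 ± 0.51 at 24 h (adjusted p = 0.42). Against WT replicates 1 and 2, in KO's own set, it was -1.26 ± 0.49 (adjusted p = 0.515) and -1.76 ± 0.47 (adjusted p = 0.0805). For Bdkrb1 this difference could not be estimated with any precision, because untreated KO held 0 UMIs and untreated WT 4. Before TWEAK none of the 8 passed between KO and WT, at an unadjusted p under 0.05 or by DESeq2 either, where 0.00882% of all genes did, and Ptges had 36.2 and 21.7 CPM in KO against 29.6 to 40.3 CPM in WT.

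MUT and WT were not separated by the tests on these genes. None of the 8 passed before TWEAK, at 6 h or at 24 h, and none passed for the difference in response at either time, in edgeR or DESeq2. Over all genes edgeR called 0% before TWEAK (815 genes at an unadjusted p under 0.05, 2 by DESeq2), 0% at 6 h (796 and 14) and 1.15% at 24 h, and 0% for the responses at 6 h (267 and 0) and 24 h (507 and 5). At 6 h the log2 difference, MUT over WT, was -0.08 for Ptges (95% interval -0.76 to 0.59) and 0.28 for Ptgs2 (-0.84 to 1.40), so the misses do not show that MUT and WT act alike. Against WT replicates 3 and 4, which share the set of MUT, it was -0.25 ± 0.29 for Ptges (adjusted p = 0.898) and -0.54 ± 0.25 for Ptgs2 (unadjusted p = 0.0429, adjusted p = 0.678), so for Ptgs2 the sign turned. At 24 h MUT held 20 Bdkrb1 UMIs against 157 in WT, a ratio of 0.247 (counting interval 0.147 to 0.394), with no overlap of libraries and a log2 difference of -1.92 ± 0.66 (adjusted p = 0.15). Against WT replicates 3 and 4, which share its library set, that difference was -1.43 ± 0.55 (adjusted p = 0.181). Bdkrb2 at 24 h gave -1.43 ± 0.50 (adjusted p = 0.153) over all WT replicates and -0.73 ± 0.46 (adjusted p = 0.437) against replicates 3 and 4. Both had an unadjusted p under 0.05 over all WT replicates. In MUT at 24 h against untreated cells none of the 8 passed and 0.688% of all genes did; 2 had an unadjusted p under 0.05, and DESeq2 called none. With the sets as groups Bdkrb1 and Ptges passed there (adjusted p = 0.0337 and 0.0421), and neither held without any 1 of the 4 MUT libraries.

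The wider pathway was followed in 7 lists of named genes, of which few members passed, against backgrounds in either direction of 6.41% and 6.87% of all genes in WT at 6 and 24 h, 1.98% in MUT at 6 h, and 3.87% in WT and 0.582% in MUT between the times. Of 8 tested genes that form or degrade kinins, none passed against untreated cells in any genotype, with a median log2 change of -0.04 in WT at both times. Serping1, the C1 inhibitor that blocks kallikrein, fell between 6 and 24 h in WT (-1.08 ± 0.26, edgeR adjusted p = 0.023). Of 12 other phospholipase and arachidonic acid release genes, Dagla alone passed upwards and Pla2g4b alone downwards in WT at 6 h. Dagla, a diacylglycerol lipase, had 27.7 to 57.6 CPM there against 19.96 to 26.4 CPM untreated, a change of 1.03 ± 0.24 (adjusted p = 0.0104). Pla2g4b, another cytosolic phospholipase A2, held 9 UMIs against 49 untreated (-1.71 ± 0.42, adjusted p = 0.0144).

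Mgll, the monoacylglycerol lipase that frees arachidonic acid from an endocannabinoid, fell at 24 h in MUT and WT. It averaged 19.7 ± 1.04 CPM in MUT at 24 h against 70.7 ± 0.449 untreated (SD, n = 2 each), 48.4 ± 9.10 against 57.9 ± 19.4 CPM in KO, and 13.6 ± 2.72 against 74.8 ± 23.0 CPM in WT (n = 4 each). The change was -1.84 ± 0.37 in MUT (adjusted p = 0.017) and -2.46 ± 0.28 in WT (adjusted p = 3.26e-06), and the difference in response between KO and WT passed, at 2.18 ± 0.46 (adjusted p = 0.0402). At 24 h Mgll was higher in KO than in WT by 1.83 ± 0.33 (adjusted p = 0.00243), where 2.89% of all genes differed. It is the 1 gene of the lists for which the difference in response passed. Against WT replicates 1 and 2 both passed for Mgll, at 2.61 ± 0.43 for the response (adjusted p = 0.00248) and 2.03 ± 0.33 for the level (adjusted p = 0.000641).

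Among 5 other tested prostanoid receptors, Tbxa2r, the thromboxane receptor, fell at 6 h in MUT (-1.89 ± 0.46, adjusted p = 0.0352) and at 6 and 24 h in WT (-1.95 ± 0.34, adjusted p = 0.000704, and -2.43 ± 0.33, adjusted p = 3.6e-05). At 24 h it stood at 83.2 and 86.0 CPM in KO against 11.5 to 31.2 CPM in WT, and the difference passed (2.12 ± 0.38, adjusted p = 0.00222). Among 5 transport and inactivation genes Slco3a1, an organic anion transporter that carries prostaglandins, rose in MUT (0.96 at 6 h and 0.98 at 24 h) and in WT (1.22 and 1.34). It was lower in KO than in WT at 6 h (-0.94 ± 0.19, adjusted p = 0.0118, where 1.27% of all genes differed) and at 24 h (-1.24 ± 0.19, adjusted p = 0.000543). Of 6 other synthases Akr1b8, an aldo-keto reductase, rose at 24 h in MUT (0.81 ± 0.19, adjusted p = 0.0465) and WT (0.70 ± 0.14, adjusted p = 0.0021). Of 7 lipoxygenase and leukotriene genes Ltc4s, leukotriene C4 synthase, rose in WT at 24 h, to 12.04 to 52.2 CPM against 0.425 to 5.47 CPM untreated (3.15 ± 0.61, adjusted p = 0.00199). Of 15 G-protein partners Rgs16, which speeds GTP hydrolysis on Gi and Gq, rose in MUT at 6 h (2.95 ± 0.65, adjusted p = 0.0174) and in WT at 6 and 24 h (2.54 ± 0.47, adjusted p = 0.00146, and 1.59 ± 0.46, adjusted p = 0.0393). Rgs16 was lower in KO than in WT at 6 h (-2.69 ± 0.65, adjusted p = 0.0393), and Arrb1, a beta-arrestin, at 24 h (-2.03 ± 0.51, adjusted p = 0.0324). Slco3a1 was lower in MUT than in WT at 24 h (-0.77 ± 0.18, adjusted p = 0.0363). Within the library set, against WT replicates 1 and 2 for KO and 3 and 4 for MUT, the differences passed for Tbxa2r (1.82 ± 0.25, adjusted p = 8.56e-05) and for Slco3a1 in KO at 6 h (-1.07 ± 0.20) and 24 h (-1.16 ± 0.19) and in MUT at 24 h (-0.85 ± 0.18). They did not pass for Rgs16 (-1.51 ± 0.52, adjusted p = 0.161) or Arrb1 (-1.55 ± 0.51, adjusted p = 0.0947).

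Across the 24 libraries, which share genotype, time and library set, Bdkrb1 and Ptges followed each other most closely among the 8 genes (Pearson r = 0.931 of log2 CPM). Bdkrb2 had r = 0.875 with Ptges and 0.811 with Bdkrb1, while Ptgs2 had 0.515 with Bdkrb1 and 0.509 with Ptges. Of all 11337 tested genes, Traf1 (0.938), Jun (0.933) and Ptges itself were the 3 most like Bdkrb1, and Jun (0.944), Fosl1 (0.939) and Nfkbia (0.935) the 3 most like Ptges. Phldb1 (0.937), Rab11fip1 (0.9) and Csf1 (0.897) were most like Bdkrb2. Inhba (0.958), Pvr (0.929) and Htr1b (0.919) were most like Ptgs2. These are descriptions of the same libraries, with no test.

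Windows of 250 bases before a RefSeq start were found for 6 of the 8 genes, 7 windows in all because Pla2g4a has 2 starts. Both strands were searched for 5 motifs, and shares are of the 32851 windows of the same length. The kappaB consensus is held by 3.9% of them. The AP-1 motif, TGANTCA, is held by 6.75% of windows. The GC box, GGGCGG, is held by 32.7% of windows. The cyclic AMP response element (CRE), TGACGTCA, is held by 1.55% of windows. The TATA motif, TATAAA, is held by 12.4% of windows. The GC box occurs in the windows of Ptgs2, Ptges and Ptger4, with 4 matches in Ptger4 of which the first 2 share a base, and TATA occurs in the second Pla2g4a window. The other motifs have no match in these 7 windows, which says only that these letters are not in these stretches. The annotated span of Ptges holds the processed pseudogene Gm13400 on its own strand, at 30923978 to 30924357. That is upstream of the RefSeq start whose window is shown. On the opposite strand, Ptger4 overlaps Ttc33 and Gm15937, Ptgs1 overlaps Gm43621, Ptgis overlaps 1110018N20Rik and Gm14291, and Pla2g4a overlaps n-R5s219, and whether counting used strand is not given in the sources used here, so their counts may include reads of these partners.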

How the data were processed

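The authors deposited UMI counts per gene and library that were not normalised, with their own log2 fold changes and adjusted p-values, which are not used here. Tools listed in the submitters' processing notes are HTSeq, cutadapt, DESeq2 and STAR 2.7.10a, with the build GRCm38. The deposited table holds no gene whose highest count is under 6. Per the labels' protocols 50 ng of RNA from either of 2 kits went into each library.

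The tests used edgeR 4.0.16 under R 4.3.3. filterByExpr left out 2142 genes, and 24 libraries in 9 groups were fitted together after TMM normalisation. SE is the size of a log2 change divided by the square root of F. Intervals of UMI ratios are exact Poisson-based 95% intervals, and a count of 0 allows up to 3 UMIs. The members and lists were chosen with earlier results of these data known. All 8 members are named, and from each list up to 4 genes that passed. Levels after TWEAK between genotypes, the WT sets apart, listed genes within sets and left-out libraries in the fit by sets were added after seeing the data. The script was tested on simulated data.

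Same-numbered WT libraries deviated together (r = 0.328 to 0.688 over 7289 genes, values that include the set difference). An alternative fit therefore uses replicate number as a block, in MUT and KO as well as in WT. The 48 normalised or transformed per-library columns were not used. Alternatives were RLE scaling, no filter, DESeq2 1.42.0, the block, library sets as groups and each library left out.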

Additional observations from a re-analysis of the deposited data

Results flagged for a closer look

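Of 24 groups of 4 WT libraries tested for a library far from the other 3, 5 were picked out. Chance gives about 1 in 20 for independent, normally distributed values. These groups are 8 genes read in the same libraries, so no excess over that rate can be read from them. Bdkrb1 in untreated WT replicate 3 was at 1.70 CPM (4 UMIs) against 0 in the others. With 3 libraries at 0, any count in the other would be picked out, so this one says nothing beyond its value and does not count against that rate. Ptgs2 in untreated WT replicate 4 was at 19.9 CPM against 11.4 to 12.7. Ptges was at 40.3 CPM in untreated WT replicate 1 against 29.6 to 31.2, and at 86.4 CPM in WT replicate 2 at 6 h against 133 to 142. Ptges in WT replicate 1 at 24 h was at 227 CPM against 75.5 to 87.6. WT replicate 1 held 42 Xist UMIs and no Y-linked ones, unlike WT replicates 2 to 4.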

How the results depend on the processing

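RLE scaling and the KO replicate block with crossed numbers changed no call on the 8 genes. The WT count at 6 h (4) was 2 to 4 without each library in turn. The WT count at 24 h (2) was 4 with the replicate block and 4 with library sets as groups, and 2 to 3 without each library. The WT count between 6 and 24 h (3) was 0 to 3 without each library. The MUT count at 6 h (3) was 0 to 2 without each library. The MUT count at 24 h (0) was 1 with the replicate block and 2 with sets. The MUT count between the times (1) was 0 with no filter, 2 with the block, 2 with sets and 0 to 0 without each library. For KO against WT the count (2) was 0 to 5 without each library at 6 h and 0 to 2 at 24 h. The cause of these shifts was not tested, apart from the smaller groups that leaving out a library makes.

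MUT numbers correlated at 0.00108 to 0.071 and KO numbers at -0.282 to 0.0996, which shows no clear pairing. The fit by genotype and time does not pair them, but the block fit does, in every genotype. With the block Ptgs2 passed in MUT at 6 h (2.20, adjusted p = 0.0079) and between the times (-2.27, 0.0082), and Ptges at 24 h (1.14, 0.027). Over all genes the counts with the block, with sets and in the fit by group were 1314, 1271 and 727 in WT at 6 h, 1770, 1760 and 779 at 24 h and 1323, 1213 and 439 between the times, and in MUT 853, 887 and 225, 355, 338 and 78, and 972, 1072 and 66. DESeq2 gave no adjusted p for Bdkrb1 and Bdkrb2 in MUT between the times or in KO against WT at 6 h. Low UMI totals limit Bdkrb1 and Bdkrb2, and 2 libraries per group limit MUT and KO.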
